A study of Homo sapiens with 6 samples.

Results

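The dual-specificity MAP kinase phosphatases DUSP1, DUSP2, DUSP3, DUSP4, DUSP5, DUSP6, DUSP8, DUSP10, DUSP14 and DUSP22 were followed in NCI-H295A cells, a steroid-producing line from a human adrenocortical carcinoma. Members were taken as all probe sets for which the platform annotation gave one single symbol from these 10 genes, which found 17 of the 22215 probe sets analysed. RNA from cells kept for 18 h with 1 mM 8-Br-cAMP, a membrane-permeable cAMP analogue, was compared with RNA from untreated cells of the same line, with 3 Affymetrix arrays in each group. The sample titles number the arrays 1 to 3 in both groups. Both groups grew in RPMI medium with insulin, selenium, gentamicin and fetal calf serum at 2%. The design text speaks of 3 separate experiments, but no label ties an array to one of them, so the p-values speak for the spread among these 6 arrays, part or all of which may be technical. In RNA from a whole culture, fewer expressing cells and less RNA per cell cannot be told apart.

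MAP kinases (ERK, JNK and p38) are switched on when a threonine and a tyrosine in their activation loop are both phosphorylated, and dual-specificity phosphatases remove both phosphates. DUSP1, DUSP2, DUSP4 and DUSP5 are nuclear enzymes whose genes are typically induced by the signals they later end, DUSP6 is a cytoplasmic phosphatase selective for ERK, and DUSP8 and DUSP10 act mainly on JNK and p38. DUSP3, DUSP14 and DUSP22 are small atypical members without the MAP kinase binding domain of the others. In mouse adrenocortical cells, ACTH, which acts through cAMP, is known to raise DUSP1.

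The upstream sequences of DUSP1, DUSP8 and DUSP6 are shown because cAMP-induced transcription often runs through CREB, which binds the palindrome TGACGTCA or its single arm TGACG. RefSeq windows (GRCh38.p14) were matched by symbol for 8 of the 10 genes, in 9 windows, since DUSP10 has 1 for each of its annotated starts. DUSP4 and DUSP5 were not matched. Each line gives the 250 bases before the annotated start on the minus strand, 5′ to 3′, at chr5:172771196-172771445 for DUSP1, chr11:1572272-1572521 for DUSP8 and chr12:89352502-89352751 for DUSP6. Capitals mark TGACG on either strand, including the overlapping pair that makes up TGACGTCA.
DUSP1: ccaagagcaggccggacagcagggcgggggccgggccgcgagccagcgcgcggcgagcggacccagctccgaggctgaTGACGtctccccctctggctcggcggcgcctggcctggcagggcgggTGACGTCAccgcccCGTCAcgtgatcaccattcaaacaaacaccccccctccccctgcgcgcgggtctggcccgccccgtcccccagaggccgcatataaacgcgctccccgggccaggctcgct
DUSP8: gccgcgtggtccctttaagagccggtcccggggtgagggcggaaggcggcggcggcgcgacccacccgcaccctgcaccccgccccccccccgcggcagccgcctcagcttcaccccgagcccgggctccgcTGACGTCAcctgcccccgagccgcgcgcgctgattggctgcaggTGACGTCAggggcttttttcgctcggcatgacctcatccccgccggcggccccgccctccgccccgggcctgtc
DUSP6: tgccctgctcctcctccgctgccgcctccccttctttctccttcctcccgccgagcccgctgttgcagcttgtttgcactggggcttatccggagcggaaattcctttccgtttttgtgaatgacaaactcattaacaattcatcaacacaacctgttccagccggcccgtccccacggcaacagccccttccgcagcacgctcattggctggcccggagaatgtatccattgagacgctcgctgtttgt
DUSP1 has TGACGTCA once, from -125 to -118 relative to the start, and single arms at -172 to -168 and -111 to -107. DUSP8 has it at -118 to -111 and again at -74 to -67, and the RefSeq span of this gene reaches further upstream than the start used here. TGACGTCA is in 2 of the 9 windows of these genes, against 1.65% of all 35116 windows of this length, and TGACG on either strand is in 3 of the 9, against 21.2% of all. The third window with TGACG belongs to DUSP3 (-99 to -95). TGANTCA, the AP-1 motif, was found on neither strand in any of the 9 and in 6.57% of all windows. A match describes the letters and is not a measured binding site.

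The arrays numbered 1 stood apart from the others in both groups, and the 12 phosphatase probe sets above the filter level (a mean signal of 45.5) are therefore also plotted by pair and in a fit without both arrays. The actin control 3′ to 5′ signal ratio, which rises as RNA is degraded, was 38.8 on 8-Br-cAMP 1 and 5.72 on control 1, and lay between 1.93 and 2.41 on the other 4 arrays. The part of RNA quality in the differences below was not tested. All 8 adrenocortical marker genes listed were above the filter level, among them STAR and CYP17A1. Of the markers of adrenal medulla, fibroblasts, endothelium and leukocytes, 6 of 15 were above it. The summed signal of the medulla markers ran from 172.7 to 292.9 with 8-Br-cAMP and from 164.7 to 318.6 in controls, that of the fibroblast markers from 227.8 to 286.6 with 8-Br-cAMP and from 188.5 to 334.1 in controls. The leukocyte sum ran from 53.3 to 211.5 with 8-Br-cAMP and from 60.2 to 90.8 in controls. The endothelial sum was higher with 8-Br-cAMP (265.0 to 401.3) than in controls (90.6 to 150.8). Its member VWF had 292.3, 224.5 and 289.2 with 8-Br-cAMP and 13.2, 17.8 and 123.8 in controls, and was the 1 marker of the 3 that was higher in every pair. In limma's fit that pairs same-numbered arrays, VWF had an adjusted p of 0.0494, and without the pairing 0.212. PECAM1, the other kept marker, had 104.6, 36.4 and 29.2 with 8-Br-cAMP and 65.9, 71.9 and 24.3 in controls (log2 difference -0.017). CDH5 lay below the filter level and was lower with 8-Br-cAMP in each pair, at 4.4, 4.1 and 1.6 against 11.5, 7.6 and 2.7 in controls. The part of this list in the phosphatase results was not tested.

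DUSP5 was the 1 phosphatase gene of the 10 that rose with 8-Br-cAMP, by 3.86-fold, in a fit that pairs same-numbered arrays. DUSP6 and DUSP1 had smaller positive differences and DUSP10 and DUSP22 negative ones, none of which passed on all 6 arrays except DUSP1 in 1 paired setting (probe sets above the 60th percentile), while DUSP3, DUSP8 and DUSP14 gave small or conflicting differences. A filter at a mean log2 signal of 5.51, a signal of 45.5, kept 12 of the 17 probe sets, from 8 of the 10 genes. In limma's fit without a block 0 of these 12 passed at an adjusted p under 0.05, as did 0 of all 13329 kept probe sets (0%), with 2 of the 12 and 1474 of all (11.1%) at an unadjusted p under 0.05. The unmoderated linear model called 1 of all and 0 of the 12. When the sample number entered the model as a replicate block (the paired fit), 1 of the 12 rose and 0 fell, against 3.21% of all kept probe sets called in either direction, 1.55% higher and 1.66% lower. The groups did not overlap for 3 of the 12 (DUSP5, 1 probe set of DUSP6, and DUSP22), against 18.5% of all, 6.02% higher and 12.5% lower. The median log2 difference of the 12 was 0.30, beside -0.13 over all kept probe sets.

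**Figure D1:**
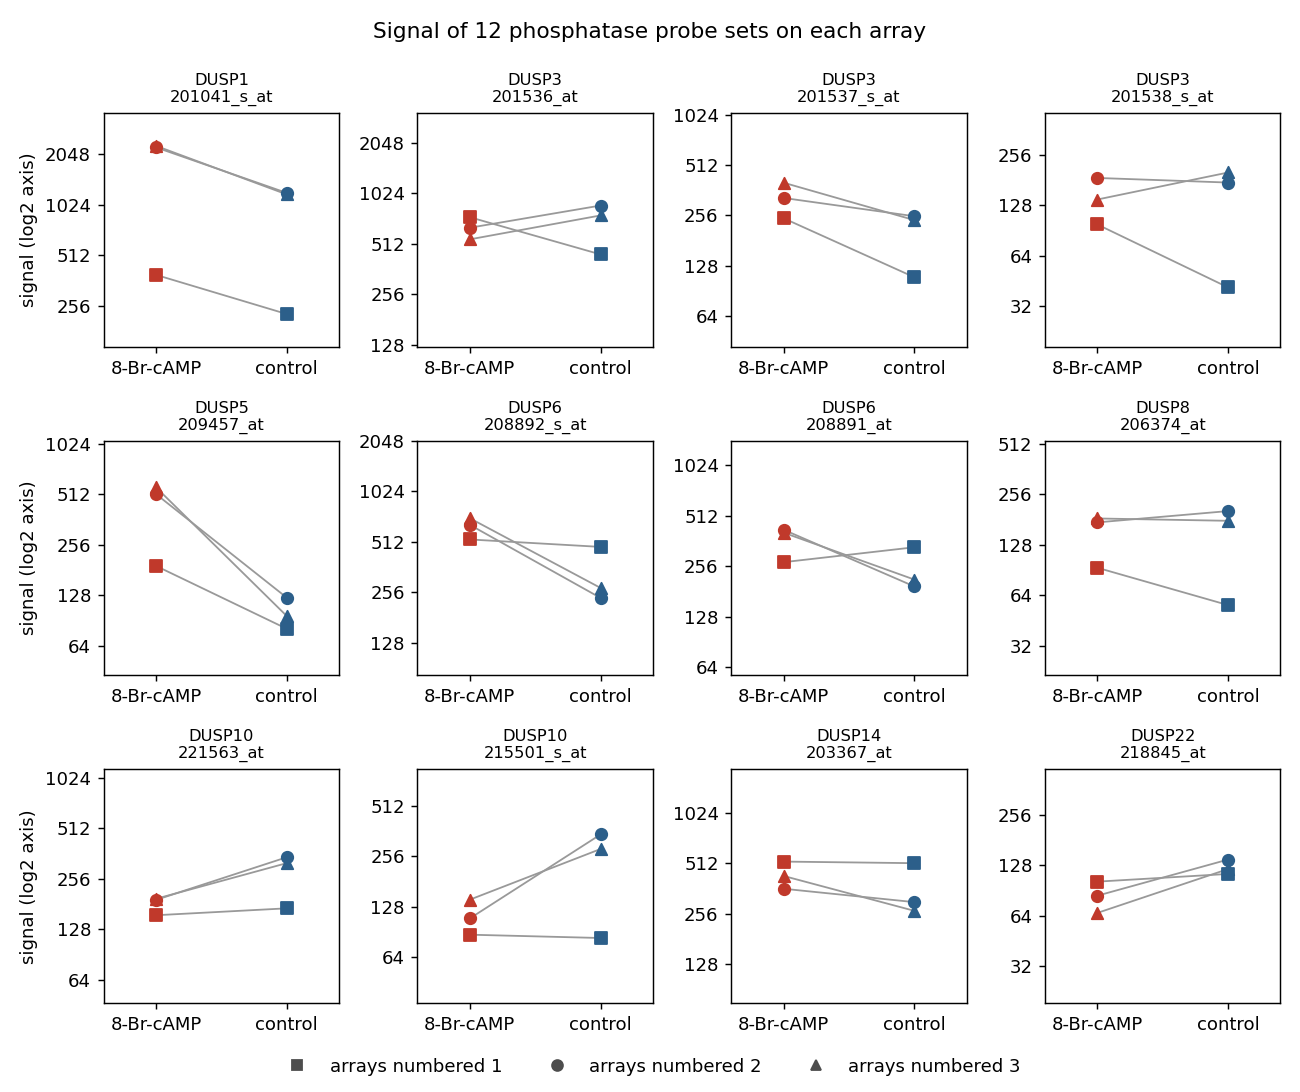
Signal on each array (log2 axis) for the 12 phosphatase probe sets above the filter level, with 8-Br-cAMP left and control right in each panel, the marker shape giving the sample number and lines joining same-numbered arrays. For DUSP5, all 3 lines are higher on the 8-Br-cAMP side, and the DUSP1 arrays numbered 1 lie far below the rest in both groups.

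DUSP5, a nuclear phosphatase selective for ERK, rose in the paired fit. Its probe set had signals of 191.6, 513.5 and 563.5 on 8-Br-cAMP arrays 1, 2 and 3, against 80.8, 123.8 and 96.2 on the control arrays. The lowest treated array was above the highest control, and 8-Br-cAMP 1 was well below its 2 replicates. The log2 signal averaged 8.57 ± 0.86 with 8-Br-cAMP and 6.63 ± 0.31 in controls (SD, n = 3 each), a difference of 1.95 (SE 0.30, 95% interval 1.24 to 2.66), or 3.86-fold, with a limma adjusted p of 0.0282 in the paired fit and 0.179 without the block. The ratio was 2.37 in pair 1, 4.15 in pair 2 and 5.86 in pair 3. The paired call was lost with a common median (adjusted p = 0.0576 by limma) and on the spike-in scale (adjusted p = 0.0534), where the log2 difference was 2.17 and 1.58. Without both number 1 arrays and without a block, the difference was 2.30 (limma adjusted p = 7.2e-05), and without 8-Br-cAMP 1 alone it was 2.45 (adjusted p = 0.0227). DUSP5 was also the only 1 of the 12 probe sets to meet the design text's selection of a change of at least 2-fold at an unadjusted p under 0.05, here in the unmoderated linear model, which 4.57% of all kept probe sets met. DUSP6 208892_s_at fell just short of that selection, at 1.989-fold with an unadjusted p of 0.0409 in the unmoderated linear model.

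DUSP1, which acts on p38, JNK and ERK in the nucleus, had nearly the same ratio in every pair but very different levels between the sample numbers. The main probe set had signals of 390.3, 2247 and 2294.2 with 8-Br-cAMP, against 227.9, 1201.9 and 1177.6 in controls. Both number 1 arrays were far below the others, and the groups overlapped because 8-Br-cAMP 1 was below controls 2 and 3. The ratios were 1.71, 1.87 and 1.95 in pairs 1, 2 and 3. The log2 difference was 0.88, with an SE of 0.89 and a limma adjusted p of 0.802 without the block, and an SE of 0.18 (95% interval 0.44 to 1.32) and an adjusted p of 0.0568 in the paired fit, so DUSP1 did not pass either. On all 6 arrays it passed the paired fit among probe sets above the 60th percentile (adjusted p = 0.0497, limma) and under no other setting run. Without both number 1 arrays it passed both without a block (log2 difference 0.93, limma adjusted p = 0.000348) and in the paired fit (adjusted p = 3.93e-05). Leaving out 1 number 1 array alone moved the unpaired log2 difference to 1.73 (without 8-Br-cAMP 1) or 0.086 (without control 1). The other DUSP1 probe set, 201044_x_at, had signals of 10.1, 13.3 and 60.3 with 8-Br-cAMP and 5.7, 26.6 and 11.5 in controls, all but 1 below the filter level.

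DUSP2 and DUSP4, the other nuclear members, lay below the filter level on average. The DUSP2 probe set had signals of 6.8, 3.6 and 2.7 with 8-Br-cAMP and 2.5, 7.0 and 3.4 in controls, so no difference was measurable. DUSP4 had 50.7, 29.7 and 38.2 with 8-Br-cAMP and 80.9, 71.1 and 16.2 in controls on 204015_s_at. This probe set had a mean log2 signal of 5.39, just under the filter, and both treated and control arrays straddled that level. On 204014_at the DUSP4 signals were 16.8, 13.9 and 30.4 with 8-Br-cAMP and 16.7, 52.3 and 28.8 in controls. Fitted with no filter, the DUSP4 log2 differences were -0.23 and -0.61, with limma adjusted p of 0.965 and 0.889.

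DUSP6, the cytoplasmic ERK phosphatase, was higher in pairs 2 and 3 and close to its control in pair 1. Probe set 208892_s_at had signals of 530.0, 647.9 and 709.3 with 8-Br-cAMP, against 478.5, 237.4 and 272.3 in controls. Control 1 was nearly as high as the lowest treated array, and the groups did not overlap. The log2 signal averaged 9.29 ± 0.21 with 8-Br-cAMP and 8.29 ± 0.54 in controls (SD, n = 3 each), a difference of 0.99 (SE 0.30, 95% interval 0.27 to 1.71) or 1.99-fold in the paired fit. It did not pass there (limma adjusted p = 0.132) or without the block (0.326). The ratios were 1.11, 2.73 and 2.61 in pairs 1, 2 and 3.

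The second DUSP6 probe set, 208891_at, had 270.5, 422.4 and 405.7 with 8-Br-cAMP and 332.0, 193.8 and 213.0 in controls. Here control 1 was above 8-Br-cAMP 1, so pair 1 had a log2 difference of -0.30 while pairs 2 and 3 had 1.12 and 0.93. The third, 208893_s_at, lay below the filter on average, at 20.4, 71.0 and 158.4 with 8-Br-cAMP against 18.2, 16.6 and 14.1 in controls. Its groups did not overlap either, and its treated signals spread widely, so its log2 difference of 1.92 fitted with no filter had a limma adjusted p of 0.257 with the block. Without both number 1 arrays, the 2 kept DUSP6 probe sets differed by 1.42 (adjusted p = 0.000232) and 1.03 (adjusted p = 0.00143, limma).

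**Figure D2:**
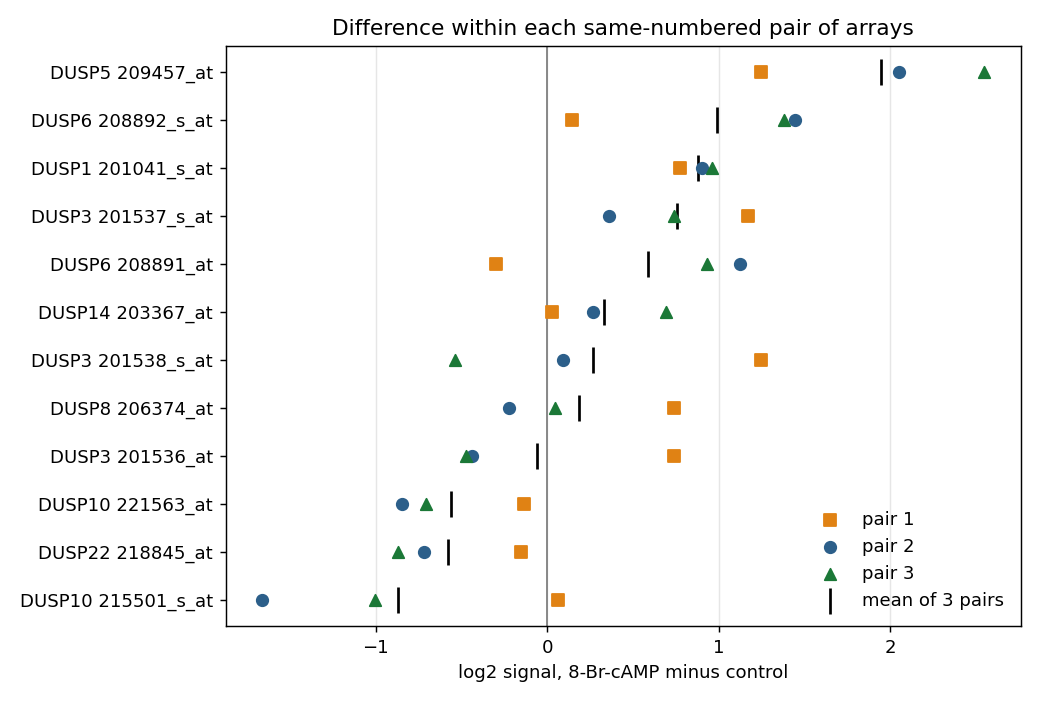
Log2 signal of 8-Br-cAMP minus control within each same-numbered pair (points) and the mean of the 3 pairs (bars) for the 12 probe sets above the filter level. DUSP1 has 3 nearly equal differences (0.78, 0.90 and 0.96). Pair 1 of DUSP6, DUSP10 and DUSP3 201536_at lies apart from pairs 2 and 3.

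DUSP10, a phosphatase of JNK and p38, was lower in pairs 2 and 3 on both of its probe sets. Probe set 221563_at had signals of 154.8, 191.1 and 194.0 with 8-Br-cAMP, against 170.2, 343.4 and 316.7 in controls. Probe set 215501_s_at had 87.5, 109.4 and 141.5 with 8-Br-cAMP against 83.6, 346.6 and 283.8 in controls. Control 1 was the low array of its group on both, and the groups overlapped through it. The ratios of 221563_at were 0.910, 0.556 and 0.613 in pairs 1, 2 and 3, and those of 215501_s_at were 1.05, 0.316 and 0.499. The log2 differences were -0.56 (SE 0.24) and -0.87 (SE 0.36), and neither passed the paired fit (limma adjusted p = 0.243 and 0.231). Without both number 1 arrays they were -0.78 and -1.33 (adjusted p = 0.00595 and 0.00199).

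DUSP8, also a phosphatase of JNK and p38 and the member with TGACGTCA in 2 places of its upstream window, showed no difference beyond its spread. It had signals of 93.2, 173.8 and 183.4 with 8-Br-cAMP, against 55.8, 203.0 and 177.6 in controls. In each group the number 1 array was lowest, and the other 4 arrays lay close together. The log2 difference was 0.19 (paired 95% interval -0.49 to 0.86, limma adjusted p = 0.748) and -0.089 without both number 1 arrays (95% interval -0.49 to 0.31, adjusted p = 0.723). The ratio was 1.67 in pair 1, 0.856 in pair 2 and 1.03 in pair 3. DUSP1, with the same motif, had ratios of 1.71 to 1.95, and no test was made between these genes.

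The 3 probe sets of DUSP3, an atypical phosphatase of ERK and JNK, did not give 1 direction. Probe set 201537_s_at had 246.4, 325.6 and 401.5 with 8-Br-cAMP, against 109.6, 253.3 and 240.1 in controls, and was higher in every pair. Probe set 201536_at had 737.8, 638.5 and 544.3 with 8-Br-cAMP against 442.5, 866.2 and 756.1 in controls, higher in pair 1 and lower in pairs 2 and 3. Control 1 was the lowest DUSP3 array on both. Probe set 201538_s_at had 98.3, 186.2 and 138.5 with 8-Br-cAMP against 41.4, 174.8 and 200.7 in controls, with a ratio of 2.37 in pair 1, 1.07 in pair 2 and 0.690 in pair 3. The log2 differences were 0.76, -0.059 and 0.27, with paired limma adjusted p of 0.146, 0.933 and 0.726. Without both number 1 arrays 201537_s_at rose by 0.55 (adjusted p = 0.0315) and 201536_at fell by 0.46 (adjusted p = 0.0342), so the sign for DUSP3 depends on the probe set.

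DUSP14 had signals of 523.3, 360.4 and 429.7 with 8-Br-cAMP, against 512.0, 299.9 and 266.1 in controls. It is a small atypical phosphatase studied mainly in T cells, and its number 1 arrays were the highest in both groups. The log2 difference was 0.33 (SE 0.22, paired 95% interval -0.20 to 0.86, limma adjusted p = 0.445), and it turned to -0.042 on the spike-in scale. The DUSP14 ratios were 1.02, 1.2 and 1.61 in pairs 1, 2 and 3, and without both number 1 arrays the difference was 0.48 (limma adjusted p = 0.0471). DUSP22, an atypical phosphatase known for acting on the JNK pathway, had signals of 102.0, 84.1 and 66.4 with 8-Br-cAMP, against 113.4, 138.2 and 121.3 in controls. Every treated array was below every control. The log2 signal of DUSP22 averaged 6.37 ± 0.31 with 8-Br-cAMP and 6.95 ± 0.15 in controls (SD, n = 3 each), a difference of -0.58 (SE 0.29, 95% interval -1.27 to 0.11) that did not pass the paired fit (limma adjusted p = 0.303). The DUSP22 ratios were 0.90, 0.609 and 0.547 in pairs 1, 2 and 3, and without both number 1 arrays the difference was -0.79 (limma adjusted p = 0.0475).

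**Figure D3:**
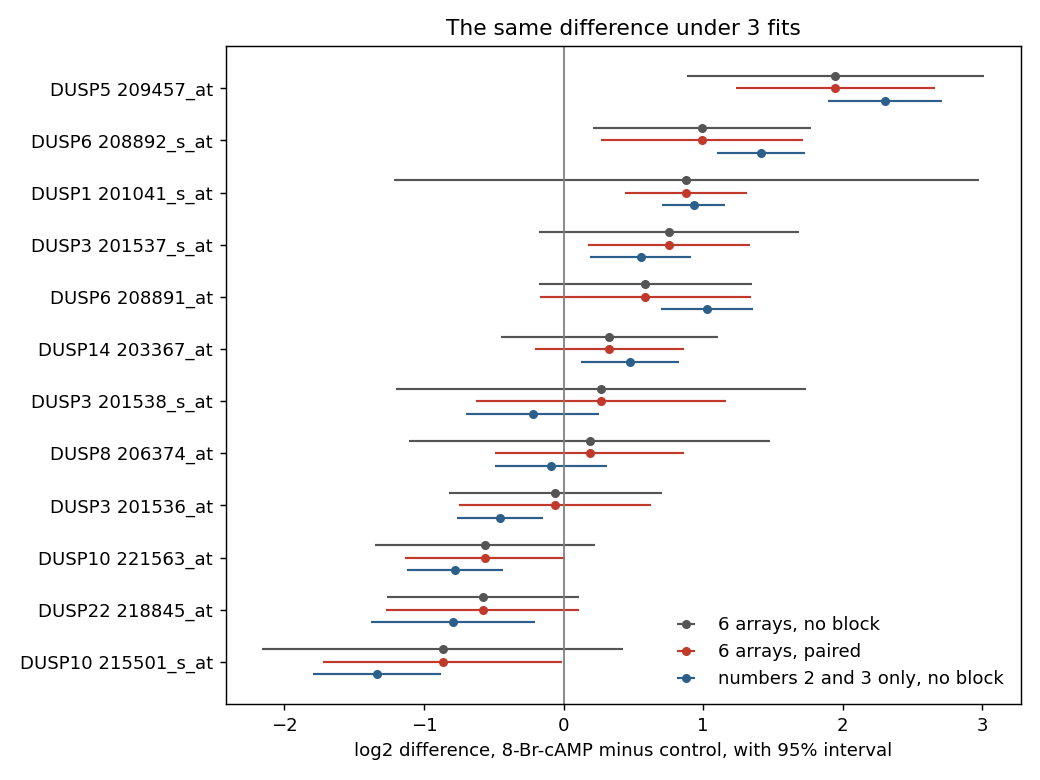
Log2 difference of 8-Br-cAMP minus control with its 95% interval for the same 12 probe sets, from the fit without a block, the paired fit and the fit without both number 1 arrays. For DUSP1, the interval runs from -1.21 to 2.97 without the block and from 0.44 to 1.32 in the paired fit, with the same difference of 0.88.

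The pattern over pairs was mixed. Of the 12 kept probe sets 5 were higher in all 3 pairs (DUSP1, DUSP5, DUSP14, and 1 each of DUSP3 and DUSP6), where 15.3% of all kept probe sets were. Lower in all 3 pairs were 2 (DUSP22 and 1 of DUSP10), where 28.9% of all were, and 5 had mixed signs. The median log2 difference of the 12 was 0.44, 0.18 and 0.37 in pairs 1, 2 and 3, beside -0.031, -0.18 and -0.15 over all kept probe sets. Fitted on arrays 2 and 3 of each group with no block, limma called 6 of the 12 higher and 4 lower (83.3%), where 12.1% of all kept probe sets were called higher, 18.7% lower and 30.8% in either direction. Those calls rest on arrays 2 and 3, whose log2 signals correlate at 0.980 with 8-Br-cAMP and 0.961 in controls, so this spread may be technical. The 2 probe sets not called were those of DUSP8 and 201538_s_at of DUSP3.

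Several members, among them DUSP1, DUSP8 and DUSP14, set the number 1 arrays apart in both groups by more than their treatment difference. DUSP10 215501_s_at did so in controls only, and DUSP6 208892_s_at in neither group. DUSP1 on 8-Br-cAMP 1 was at 0.172 of the geometric mean of 8-Br-cAMP 2 and 3, and on control 1 at 0.192 of that of controls 2 and 3. For DUSP8 these ratios were 0.522 and 0.294, and for DUSP10 215501_s_at 0.703 and 0.267. DUSP6 208892_s_at was lower on the number 1 array with 8-Br-cAMP and higher in controls, at 0.782 with 8-Br-cAMP and 1.88 in controls. DUSP14 was higher on both number 1 arrays, at 1.33 with 8-Br-cAMP and 1.81 in controls. Over all kept probe sets the median log2 offset of the number 1 array was 0.099 with 8-Br-cAMP and -0.065 in controls.

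The genes whose log2 signals were most like those of DUSP1, DUSP5 and DUSP6 over the 6 arrays differed between the 3. They are given as a description over arrays that share the treatment and the sample numbers. Because these genes were picked for this likeness, the patterns they share with DUSP1, DUSP5 or DUSP6 follow largely from the picking. For DUSP1 these were CYCS (r = 0.997), RB1CC1 (0.996) and P3H2 (0.995), whose signals were likewise lowest on the number 1 array of each group. CYCS, which encodes cytochrome c, had 4878.1, 8045.5 and 8415 with 8-Br-cAMP and 3868.7, 6769.4 and 6544.5 in controls. For DUSP5 they were DKK1 (r = 0.998), SERPINE2 (0.995) and PRKCA (0.994), each higher on every treated array than on any control. DKK1, a secreted Wnt inhibitor, had 143.5, 879.2 and 914.5 with 8-Br-cAMP and 36, 70.1 and 56.7 in controls. For DUSP6 they were ENPP2 (r = 0.997), HSPE1 (0.995) and DAD1 (0.992). ENPP2, which encodes the secreted enzyme autotaxin, had 2858.4, 4740.7 and 5114.3 with 8-Br-cAMP and 2384.2, 570.4 and 630.2 in controls, so control 1 was high for it as for DUSP6.

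Several genes that ERK signalling is known to switch on rose with 8-Br-cAMP in the paired fit, while 0 passed without the block. Of 19 such output and feedback genes listed, 15 were kept and 5 rose in the paired fit (EGR1, SPRY2, FOSL1, ETV5 and JUNB), with 0 lower and a median log2 difference of 0.62, where 3.68% of 7927 kept genes passed (1.73% higher, 1.96% lower) and the median of all was -0.14. SPRY2, a feedback inhibitor of receptor signalling to ERK, had 119.8, 437.0 and 463.1 with 8-Br-cAMP, against 28.3, 73.6 and 82.5 in controls (log2 difference 2.38, SE 0.25, limma adjusted p = 0.0125 in the paired fit). FOSL1, an AP-1 subunit, had 97.5, 247.9 and 287.9 with 8-Br-cAMP against 22.0, 44.4 and 64.4 in controls (log2 difference 2.26, adjusted p = 0.0183). Neither gene's groups overlapped. ETV5, an ETS-family factor, had 1397.6, 1781.5 and 1862.9 with 8-Br-cAMP against 480.8, 755.9 and 731.9 in controls (log2 difference 1.38, adjusted p = 0.0217). SPRY1, a relative of SPRY2, differed by -1.30, EPHA2 by -0.96 and SPRED2 by -0.38. SPRY1, EPHA2, SPRED2 and JUNB were named after their values were seen and stand outside the naming rule. ERK activity was not measured, and whether ERK or CREB acted on the listed genes was not tested. Without both number 1 arrays 9 of the 15 rose and 1 fell, where 12.8% of all kept genes rose and 20.5% fell (33.3% in either direction).

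Of 8 kept genes listed as responsive to cAMP and CREB, 4 rose in the paired fit (NR4A3, SIK1, NR4A1 and INHA) and 0 fell, with a median log2 difference of 1.30. In that fit 3.68% of all kept genes passed, 1.73% higher and 1.96% lower. SIK1, a salt-inducible kinase that restrains CREB coactivators, had 1524.3, 2812 and 2910.2 with 8-Br-cAMP, against 665.2, 658.0 and 830.4 in controls. Among 8 kept MAP kinases only MAPK13, a p38 isoform, rose (574.7, 467.2 and 414.9 with 8-Br-cAMP against 294.3, 209.4 and 202.0 in controls, log2 difference 1.05, limma adjusted p = 0.0474 in the paired fit and 0.226 without the block), and 0 fell, with a list median of -0.10. Of 9 kept upstream kinases and RAS genes 0 passed the paired fit by limma, and the 2 with the smallest unadjusted p were MAP3K5 (-0.79, unadjusted p = 0.0198) and MAP2K5 (-0.90, unadjusted p = 0.0208, log2 differences). In the fit without the block 0 genes of any of these lists passed. On arrays 2 and 3 alone, 12.8% of all kept genes rose and 20.5% fell (33.3% in either direction). There, 7 of the 8 cAMP and CREB genes rose and 0 fell. Of the 8 kept MAP kinases 1 rose and 2 fell, which is near the shares of all genes. Of the 9 kept upstream genes 1 rose and 4 fell.

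Among 22 other dual-specificity phosphatases listed, 15 had a probe set and 11 were kept. PTP4A1, a membrane-bound phosphatase of the PRL family, was the 1 that rose in the paired fit, and 0 fell. Of all kept genes 1.73% rose and 1.96% fell in that fit. PTP4A1 had signals of 1786.3, 3483.9 and 4064 with 8-Br-cAMP, against 654.4, 257.7 and 416.1 in controls, with every treated array above every control. The log2 difference was 2.83 (SE 0.43, limma adjusted p = 0.0266 in the paired fit and 0.0948 without the block), or 7.12-fold. The ratio was 2.73 in pair 1, 13.5 in pair 2 and 9.77 in pair 3, and without both number 1 arrays PTP4A1 was 11.5-fold higher (adjusted p = 2.25e-05, limma). At 1 probe set per gene, the median log2 difference was 0.26 for the 8 kept MAP kinase phosphatases and -0.35 for these 11. The 2 MAP kinase tyrosine phosphatases with a probe set, PTPRR and PTPN7, lay below the filter level.

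**Figure D4:**
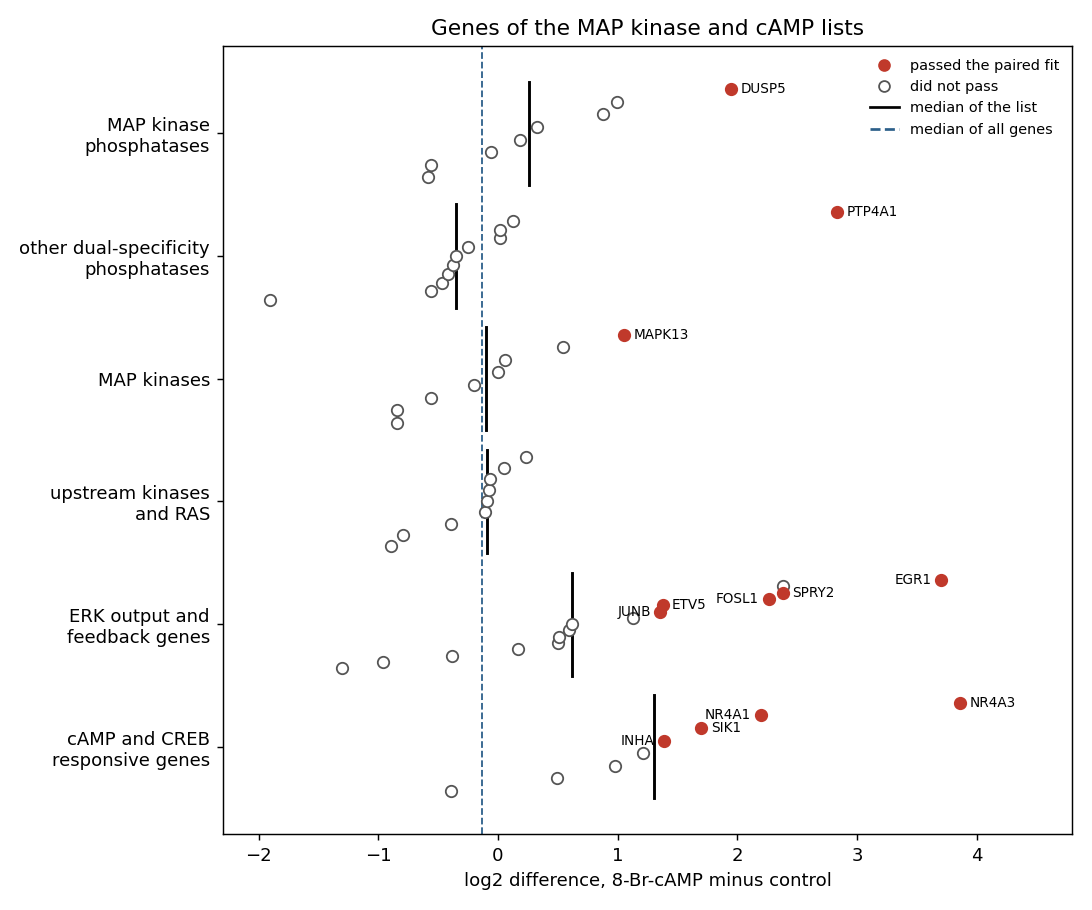
Log2 difference of 8-Br-cAMP minus control for each kept gene of 6 lists, at 1 probe set per gene, with filled points for genes that passed the paired fit, a solid bar at the list median and a dashed line at the median of all genes (-0.14). DUSP5 (1.95), PTP4A1 (2.83) and MAPK13 (1.05) are the only filled points of the upper 4 lists.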

How the data were processed

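Per the labels' protocols the authors made 1 signal intensity for each probe set and array with GCOS 1.3, on a linear scale, and these deposited intensities were used as given, since their 2% trimmed means agreed within 5% (249.996 to 250.155). Such a scaling hides a shift common to most transcripts. Depth is not defined for arrays, and their number limits the precision. Detection calls were not used here. Of 22277 probe sets, 62 are array controls, and 19064 have 1 symbol in the platform annotation, 1043 several. limma 3.58.1 under R 4.3.3 was run on log2 intensities (lmFit, eBayes with an intensity trend, two-sided), and Benjamini-Hochberg adjustment covered the 13329 probe sets above the 40th percentile of mean log2 signal, with calls at 0.05. Adjusted p-values come from limma wherever no other tool is given. The planned fit had no block. Deviations from group means of same-numbered arrays correlated at 0.603, 0.378 and 0.538 for numbers 1, 2 and 3, all over the 0.1 required, so the numbers were read as pairs and the blocked values are printed too. This pairing comes from the data and sets number 1 apart, but does not tell 2 from 3: 8-Br-cAMP 2 correlated at 0.547 with control 3, and 8-Br-cAMP 3 at 0.312 with control 2. DUSP5's paired call rests on it. Lists use the probe set with the highest mean per gene. Named beside the members were up to 4 passing genes per list, or the 2 smallest unadjusted p where none passed, and the 3 genes most correlated with DUSP1, DUSP5 and DUSP6. Members, lists and tests were chosen with earlier results of these data known. Alternatives covered the block, scaling, filters, a floor, a pseudocount of 16, variance moderation, the design text's selection and left-out arrays, and the fits were tested on simulated data. Promoter windows are RefSeq's.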

Additional observations from a re-analysis of the deposited data

How the results depend on the processing

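The count of probe sets called among all 13329 was 0 without a block (smallest adjusted p 0.0511). Without the block it was 17 with quantile normalization, 17 with a common median, 14 on the scale of 18 spike-in probe sets, 18 above the 60th percentile, 26 with a floor at the 20th percentile, 26 with a pseudocount of 16 and 1 in the unmoderated model, with 609 under the design text's selection. With the replicate block it was 428, and with the block and quantile normalization 347, a common median 142 (103 up, 39 down), spike-in scaling 1064 (103 up, 961 down), no filter 406, the 60th percentile 440, the floor 473 and the pseudocount 521. Leaving out 1 array gave 0 to 285, and leaving out both arrays of a number gave 0 to 4103. Scaling moved the median log2 difference over the kept probe sets from -0.13 to -0.030 (quantile), 0.094 (common median) and -0.50 (spike-in). Of the phosphatase probe sets 1, DUSP5, passed under the block, under the block with quantile normalization, no filter, the floor or the pseudocount, and under the design text's selection, while 2 passed with the block above the 60th percentile. Leaving out 1 array gave 0 to 1, both arrays of a number 0 to 10 without the block and 1 to 10 with it, a setting added after the data were seen (1 without number 2 or 3, 10 without number 1). With the planned filter and scale, the replicate block changed no call among the 12 but that of DUSP5. Above the 60th percentile it changed that of DUSP1 as well (limma adjusted p = 0.802 without the block and 0.0497 with it). Directions turned for 4 probe sets, none of which passed under a setting that turned it. DUSP3 201536_at became 0.17 with a common median, with or without the block, 0.053 without 8-Br-cAMP 3, 0.13 or 0.037 without control 2 or 3 (lowest with 1 array left out -0.35, without control 1), and 0.13 or 0.15 without both arrays numbered 2 or 3, with or without the block. DUSP3 201538_s_at became -0.10 on the spike-in scale, with or without the block, -0.46 without control 1 and -0.22 without both number 1 arrays, with or without the block, and ranged up to 0.68 with 1 array left out. DUSP8 became -0.18, -0.40 and -0.089 under the same settings and ranged up to 0.53, and DUSP14 became -0.042 on the spike-in scale, with or without the block. The cause of these turns was not tested. DUSP1 201044_x_at, DUSP2 and DUSP4 lay too low for a direction to be read. DUSP6 208893_s_at, also below the filter on average, was higher in every pair. It did not pass when fitted with no filter (limma adjusted p = 0.257 with the block). The spike-ins report on hybridisation, not on RNA per cell.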
